A study of Mus musculus with 9 samples.

Results

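The 9 genes described here encode the signalling part of the T cell receptor complex and the first proteins it acts on, and all 9 were found by symbol among the 23466 genes of the count table. They are the CD3 chains Cd3e, Cd3g, Cd3d and Cd247, the co-receptors Cd4 and Cd8a, the kinases Lck and Zap70, and the adaptor Lat. RNA was measured in 9 libraries of sorted ILC2s (group 2 innate lymphoid cells), which live in tissues and release type 2 cytokines, from wild-type C57BL/6J mice aged 10 weeks. The 3 groups of 3 libraries were brain meninges taken 24 h after an 80 kdyn contusion of the spinal cord (injured meninges), brain meninges of uninjured mice, and lung of uninjured mice. No sham-operated group was labelled. The sort gate took live, CD45-positive, lineage-negative cells positive for ST2 and Thy1, and the antibodies in the lineage mix are not given in the sources used here. The labels give 5 pooled mice per group and do not say whether each library had its own pool, so p-values reflect only how these libraries vary among themselves, and that variation may be technical.

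In T cells the antigen-binding receptor chains have no signalling tail of their own and depend on the CD3 chains, whose tails carry tyrosine motifs called ITAMs. Lck, which binds the tails of CD4 and CD8, phosphorylates these motifs, ZAP-70 docks on them, and ZAP-70 then phosphorylates LAT, a membrane scaffold for phospholipase C gamma and Ras activators. ILC2s are known to develop without displaying an antigen receptor, while sharing transcription factors and much of the downstream signalling machinery with helper T cells.

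Cd3g, Cd3d and Cd3e lie in 1 cluster on mouse chromosome 9, and the stretches before their starts are shown because these neighbours differed in which library was highest. The sequences are from RefSeq (GRCm38.p6), 5′ to 3′ on each gene's own strand, and stop before the first base that RefSeq annotates as transcribed. Cd3g, on the minus strand, is shown for chr9:44980432-44980681, Cd3d, on the plus strand, for chr9:44981536-44981768, and Cd3e, on the minus strand, for chr9:45009664-45009861. Capitals mark matches, on either strand, to the Ets motif AGGAAG, the GATA motif AGATAA and the E protein motif CAGGTG, and the Runx motif TGTGGT was also searched.
Cd3g: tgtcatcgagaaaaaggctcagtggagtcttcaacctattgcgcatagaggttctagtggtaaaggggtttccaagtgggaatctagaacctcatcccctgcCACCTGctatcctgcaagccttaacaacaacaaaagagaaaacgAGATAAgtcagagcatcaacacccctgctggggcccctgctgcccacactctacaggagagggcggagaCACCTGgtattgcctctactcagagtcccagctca
Cd3d: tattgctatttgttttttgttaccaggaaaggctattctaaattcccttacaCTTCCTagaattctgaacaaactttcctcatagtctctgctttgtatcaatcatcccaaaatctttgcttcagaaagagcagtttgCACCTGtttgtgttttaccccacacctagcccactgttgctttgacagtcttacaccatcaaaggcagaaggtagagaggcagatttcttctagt
Cd3e: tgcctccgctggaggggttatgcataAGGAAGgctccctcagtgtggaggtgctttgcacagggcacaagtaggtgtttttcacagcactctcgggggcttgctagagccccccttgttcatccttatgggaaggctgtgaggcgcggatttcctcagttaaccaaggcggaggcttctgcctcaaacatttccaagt

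The Cd3g window of 250 bases held 1 GATA match and 2 E protein matches, the Cd3d window of 233 bases held 1 Ets and 1 E protein match, and the Cd3e window of 198 bases held 1 Ets match. No Runx match was found in these windows. Among 32851 RefSeq windows cut to the same length, a GATA match was found in 9.99% at the length of Cd3g and an E protein match in 17.2%. An Ets match was found in 27.5% of windows at the length of Cd3d and in 23.7% at that of Cd3e. The start sites from which the Cd3g and Cd3d windows were first cut were 1355 bp apart on opposite strands. For Cd3d that site lies past the first annotated base, before which its printed window stops.

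The libraries held 13407277 to 18253462 counts and 13465 to 18452 detected genes. Mitochondrial genes took 23.5 to 32.5% of counts. A count of 3, the limit that a count of 0 allows, stood for 0.163 to 0.239 CPM in a library (CPM, a read count put on the same scale in all libraries), and this limit covers counting error only. Injured meninges 2 stood apart: it had the fewest detected genes, and its Spearman correlations with the other injured libraries were 0.795 and 0.799, against 0.854 between those. Il1rl1, which encodes ST2, was at 1852 to 2694 CPM in every library. Thy1, also a gate gene, fell in injured meninges, at 92.5, 60.1 and 51.4 CPM, against 279, 167 and 229 CPM in uninjured meninges (log2 fold change -1.73 ± 0.29 (SE), adjusted p = 0.0218, edgeR quasi-likelihood test). Its adjusted p reached 0.131 with 1 library left out, and the call was lost without uninjured meninges 1 or 3 or injured meninges 2 or 3.

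Across the 9 genes, the proximal kinases, the adaptor and the CD3 chains had a count in every library, and the co-receptors were the scarcest. Cd3d and Cd3g held most of their level in a single library, whereas Cd3e and Cd247 were spread over several. Lat was the most abundant per length of annotated exon in all groups, with 26.7 CPM per kilobase in injured meninges, 23.2 in uninjured meninges and 16.1 in lung. Zap70 was at 8.84, 10.7 and 4.60 CPM per kilobase in injured meninges, uninjured meninges and lung, and Lck was at 2.20, 4.47 and 4.95. Cd8a and Cd4, the co-receptors that bind MHC class I and class II, were under 1 CPM per kilobase in all 3 groups. In injured meninges the order per kilobase was Lat, Cd3g, Zap70, Lck, Cd3e, Cd247, Cd3d, Cd4 and Cd8a, with Cd3g at 10.5. In uninjured meninges it was Lat, Zap70, Cd3d, Lck, Cd3g, Cd3e, Cd247, Cd4 and Cd8a, with Cd3d at 6.15. In lung it was Lat, Lck, Zap70, Cd3e, Cd3g, Cd4, Cd247, Cd8a and Cd3d. The ranges of neighbours in these orders, each over the 3 libraries of the group, overlapped except for Lat and Lck, and Cd3g and Cd4, in lung.

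**Figure D1:**
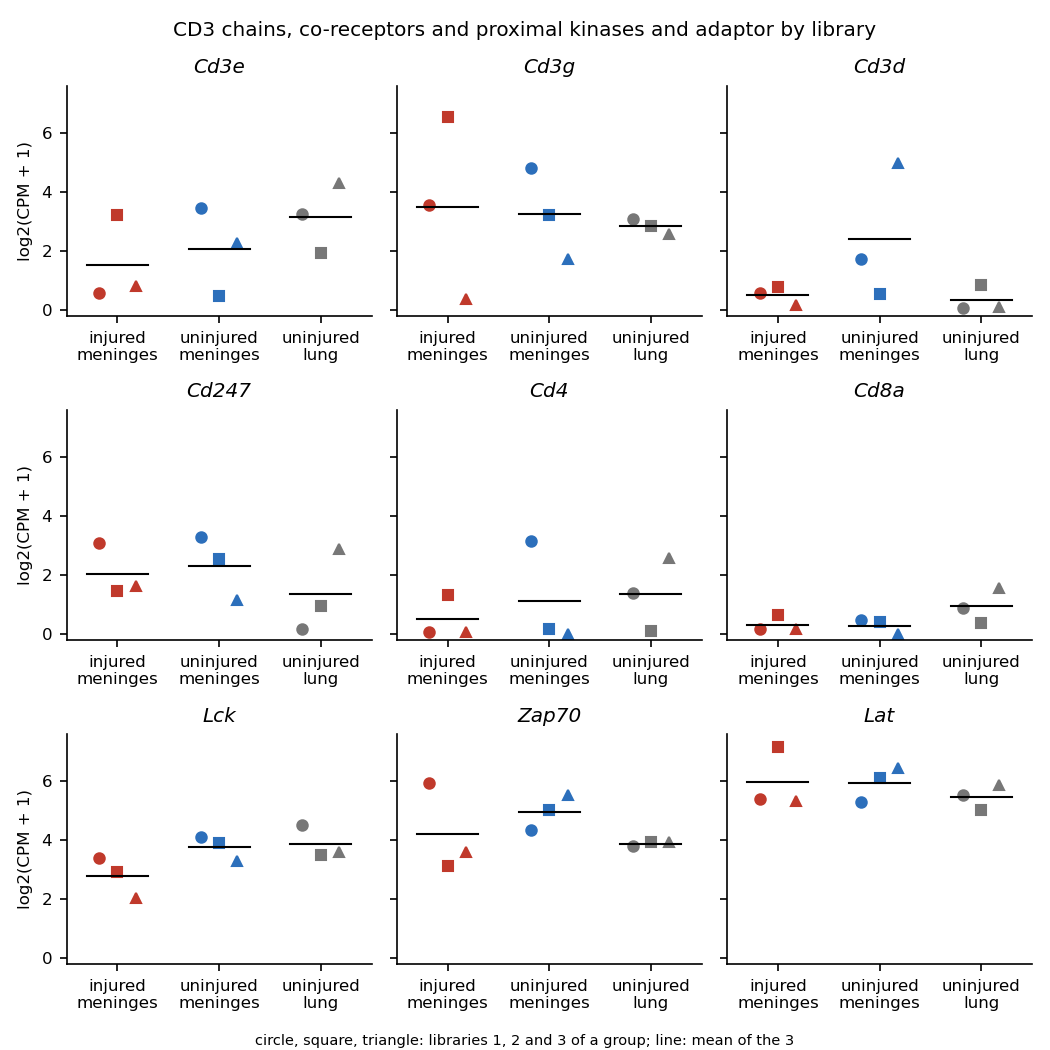
Level of each of the 9 genes, as log2(CPM + 1) on the y axis, in injured meninges, uninjured meninges and lung on the x axis, with 1 point per library (circle, square and triangle for libraries 1, 2 and 3) and a line at the mean of the 3. Lat and Zap70 are above 7 CPM in every library, whereas Cd3d is above 3 CPM in uninjured meninges 3 alone, and Cd3g reaches 91.9 CPM in injured meninges 2.

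Lat had 40.5, 142 and 38.9 CPM in injured meninges, 38.3, 68.3 and 85.7 CPM in uninjured meninges, and 45.5, 31.7 and 56.7 CPM in lung. All 3 groups overlapped, and injured meninges 2 was the highest library. Zap70 had 60.6, 7.72 and 11.0 CPM in injured meninges, 19.4, 31.4 and 45.1 CPM in uninjured meninges, and 12.9, 14.2 and 14.2 CPM in lung. Its uninjured meninges libraries lay above all lung libraries, while the injured libraries held both the highest and the lowest values. Lck had 9.62, 6.60 and 3.07 CPM in injured meninges, 16.4, 14.1 and 8.87 CPM in uninjured meninges, and 21.9, 10.4 and 11.2 CPM in lung. Lck was low in injured meninges 3, and only the highest injured value passed the lowest uninjured meninges value.

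Among the CD3 chains, Cd3e, whose protein pairs with CD3 gamma or CD3 delta, had 0.48, 8.35 and 0.75 CPM in injured meninges, 9.96, 0.39 and 3.83 CPM in uninjured meninges, and 8.60, 2.80 and 18.6 CPM in lung. High and low libraries occurred in both meningeal groups. Cd3g, which forms a dimer with CD3 epsilon, had 10.8, 91.9 and 0.31 CPM in injured meninges, 27.4, 8.32 and 2.35 CPM in uninjured meninges, and 7.50, 6.26 and 5.00 CPM in lung. The injured libraries held its highest and its lowest value, and the lung libraries lay close together. Cd3d, the other partner of CD3 epsilon, had 0.48, 0.72 and 0.13 CPM in injured meninges, 2.34, 0.45 and 30.7 CPM in uninjured meninges, and 0.06, 0.81 and 0.06 CPM in lung. Uninjured meninges 3, with 457 counts, held 85.9% of its level summed over the 9 libraries, and the groups overlapped at the low end.

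Cd247, the zeta chain that carries most of the complex's ITAMs, had 7.47, 1.75 and 2.07 CPM in injured meninges, 8.71, 4.78 and 1.21 CPM in uninjured meninges, and 0.12, 0.96 and 6.47 CPM in lung. Each group had at least 1 library above 6 CPM and the groups overlapped. In GENCODE M21, the span of Cd247 is shared with Pou2f1 on the opposite strand, which had 21442 counts in all, and with the antisense gene Gm37469, which had 2472. No source used here gives the strand setting of the counting, and without strand, reads of Cd247 and of these genes cannot be told apart.

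Of the co-receptors, Cd4 had 0.06, 1.51 and 0.06 CPM in injured meninges, 7.84, 0.13 and 0 CPM in uninjured meninges, and 1.60, 0.07 and 4.93 CPM in lung. Uninjured meninges 1, with 144 counts, was its highest library, and uninjured meninges 3 had no count. Cd8a had 0.12, 0.56 and 0.13 CPM in injured meninges, 0.38, 0.32 and 0 CPM in uninjured meninges, and 0.86, 0.29 and 1.92 CPM in lung. With at most 30 counts in a library it was left out by the filter on low counts, and it has no test.

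The highest library differed among the CD3 chains. Of each gene's level summed over the 9 libraries, the highest library held 85.9% for Cd3d (uninjured meninges 3), 57.5% for Cd3g (injured meninges 2), 48.4% for Cd4 (uninjured meninges 1) and 34.6% for Cd3e (lung 3). It held 28.0% for Zap70, 26.0% for Lat, 26.0% for Cd247 (uninjured meninges 1) and 21.4% for Lck. Uninjured meninges 1 was among the top 2 of the 9 libraries for each CD3 chain, with 26.0% of Cd247, 18.5% of Cd3e, 17.1% of Cd3g and 6.55% of Cd3d. Among all tested genes of 1 to 10 CPM the median was 34.6%, with quartiles of 26.6 and 46.1%, and among those of 10 to 100 CPM it was 20.7%, with quartiles of 17.6 and 25.8%. Cd3d and Cd4 lay above the upper quartile of genes as scarce as they were, Cd3e lay at the median and Cd247 just below the lower quartile. Cd3g, Zap70 and Lat lay above the upper quartile of their abundance range, and Lck lay inside it. The highest library exceeded the lowest 4.49-fold for Lat, 7.12-fold for Lck, 7.85-fold for Zap70, 48.1-fold for Cd3e and 293-fold for Cd3g, and these ratios cover libraries, not conditions.

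**Figure D2:**
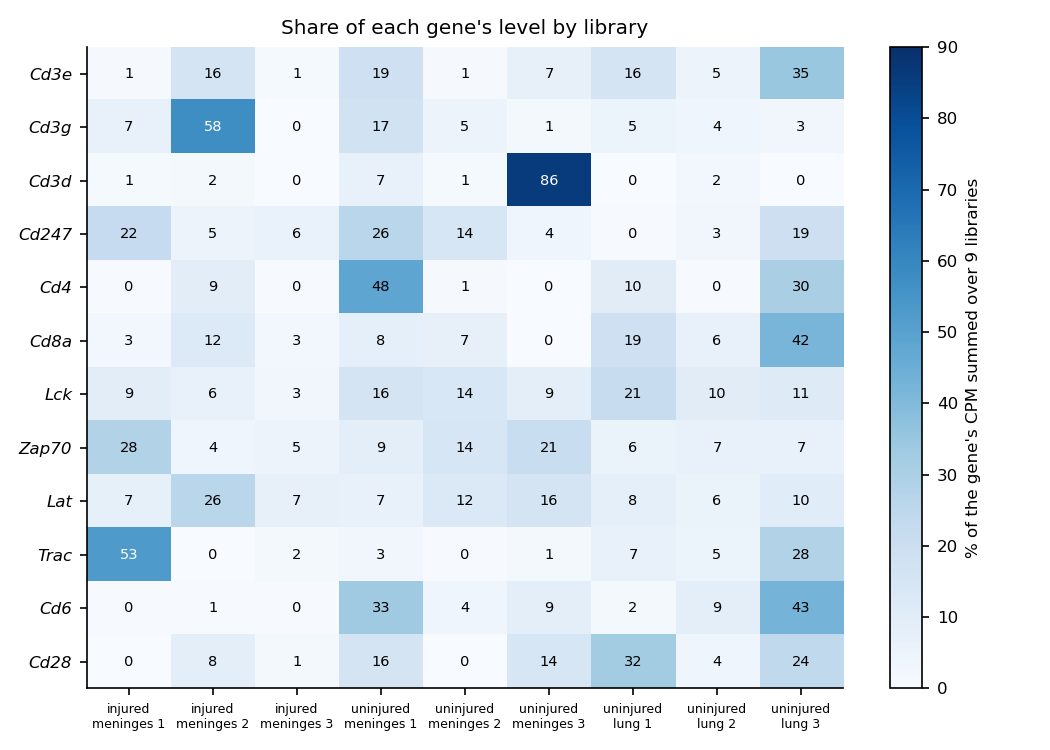
Share of each gene's level, summed over the 9 libraries, that each library holds, in percent, with the 9 genes and the T cell markers Trac, Cd6 and Cd28 as rows and the libraries as columns in the order injured meninges, uninjured meninges and lung. The highest cells of the CD3 chains fall in different libraries, with 85.9% of Cd3d in uninjured meninges 3 and 57.5% of Cd3g in injured meninges 2.

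**Figure D3:**
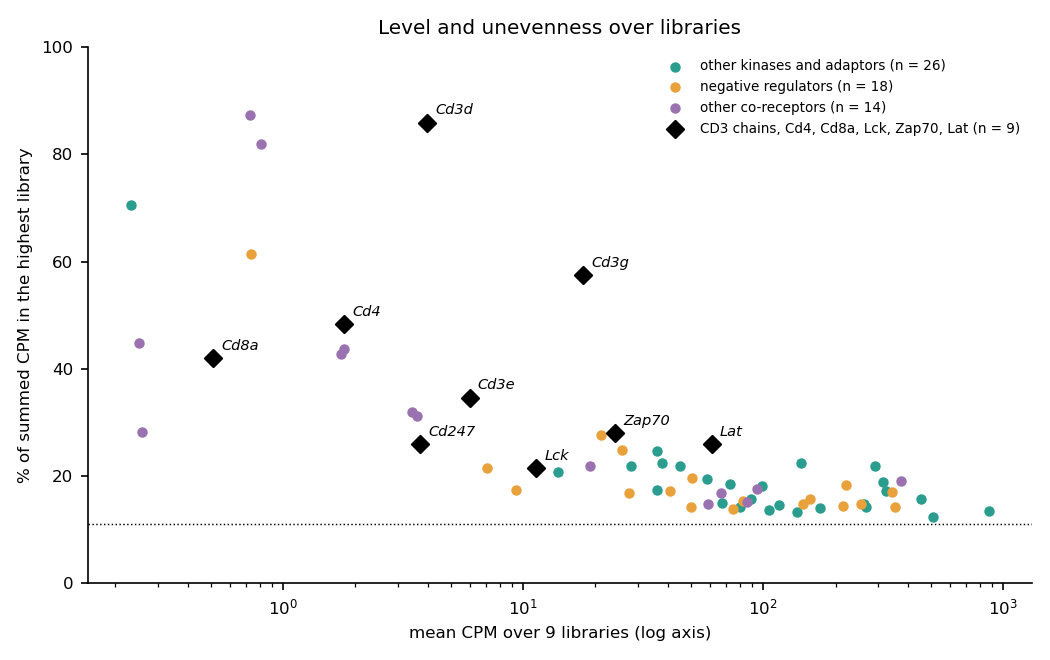
Share of the highest library, in percent, against the mean level in CPM on a log axis. The 9 genes are named diamonds. Points are the listed kinases, adaptors and other downstream genes (26), negative regulators (18) and co-receptors (14). The dotted line marks an equal share for each of the 9 libraries, and Cd3d at 85.9% and Cd3g at 57.5% lie high above listed genes of like level.

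Injured against uninjured meninges asked whether the injury changed these genes. None did so past the test: 0 of 8 tested genes had an edgeR quasi-likelihood adjusted p under 0.05, where 0.192% of the 15117 genes tested did. At an unadjusted p under 0.05 there was 1, Cd3d, where 8.94% of all genes passed, and DESeq2 called 0, where it called 1.81% of its genes. Of all genes 0.0595% were called lower in injured meninges by edgeR. The groups did not overlap for 0 of the 8, against 12.1% of all genes. The median log2 fold change of the 8 was -0.47, beside -0.0047 for all genes tested. In a bulk sample fewer cells that express a gene and less of its RNA per cell cannot be told apart.

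The largest difference was that of Cd3d, at -4.65 ± 1.89 (log2, SE) with an adjusted p of 0.501 by edgeR. It rested on uninjured meninges 3, without which it was -1.65, with an adjusted p of 0.960. Cd4 differed by -2.28 ± 2.28 (adjusted p = 0.839) and Cd3g by 1.43 ± 1.22 (adjusted p = 0.802). The sign of each hung on a single library: Cd4 was at 2.91 without uninjured meninges 1, and Cd3g at -1.20 without injured meninges 2. Lck, the kinase that starts the cascade, differed by -1.03 ± 0.81 (adjusted p = 0.777) and kept its sign whichever library was left out, from -1.43 to -0.69. Lat differed by 0.21 ± 0.50 and Zap70 by -0.27 ± 0.71, with adjusted p of 0.951 and 0.957, and without injured meninges 2 they were at -0.69 and 0.17. Cd3e and Cd247 differed by -0.57 ± 1.41 and -0.38 ± 1.54, with adjusted p of 0.952 and 0.978, and both changed sign without uninjured meninges 1, to 0.60 and 0.33.

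Uninjured meninges against uninjured lung compared the same sorted population between tissues. Again 0 of 8 tested genes passed by edgeR, where 0.635% of the 15117 genes did. At an unadjusted p under 0.05 there was 1, Cd3d, where 7.98% of all genes passed, and DESeq2 called Cd3d alone, where it called 2.96% of its genes. Of all genes 0.0397% were called higher in uninjured meninges by edgeR. The groups did not overlap for 1 of the 8, Zap70, against 18.2% of all genes. The median log2 fold change of the 8 was 0.74, beside 0.0019 for all genes tested.

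Cd3d was 5.14 ± 1.94 higher on the log2 scale in meninges (adjusted p = 0.411 by edgeR and 0.0400 by DESeq2). Without uninjured meninges 3 the edgeR value was 2.14, with an adjusted p of 1.00, so this difference too rested on the library with 457 counts. Zap70 was at 1.22 ± 0.72 (adjusted p = 0.786) and Lat at 0.52 ± 0.50 (adjusted p = 0.944), and both kept their sign whichever library was left out. Cd3g was at 1.02 ± 1.21, Cd247 at 0.96 ± 1.55 and Cd3e at -1.08 ± 1.41, with edgeR adjusted p of 0.977, 0.992 and 0.981. Lck and Cd4 were at -0.14 ± 0.80 and 0.27 ± 2.17, with adjusted p of 0.995 and 0.996, and without uninjured meninges 1 Cd4 was at -4.92 and Cd3g at -0.23. Lck was at 0.07 without uninjured meninges 3 and at 0.28 without lung 1.

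**Figure D4:**
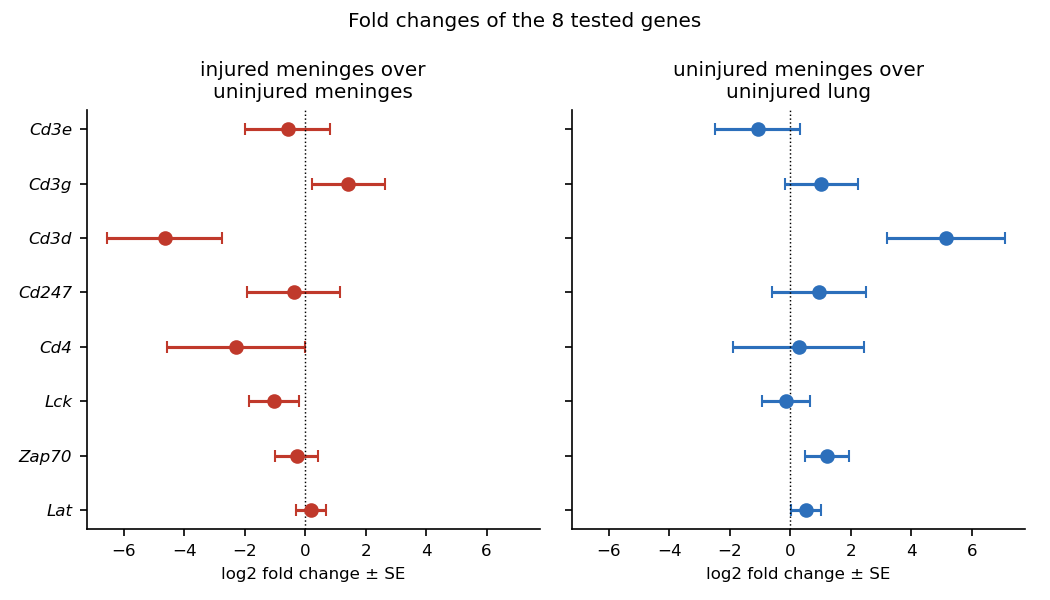
Log2 fold change (points, x axis) with its standard error (bars) for the 8 tested genes, for injured against uninjured meninges and for uninjured meninges against lung. The longest bars are those of Cd4, with a standard error of 2.28 for injury, and Cd3d lies farthest from 0, at -4.65 and 5.14.

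The receptor's own constant-region genes, which the CD3 chains accompany in T cells, were in part more abundant than the CD3 chains. Of 11 listed names 8 were in the table and 7 were tested. By edgeR 0 of the 7 were called for injury and 1 for tissue, where 0.192 and 0.635% of all genes were. The groups did not overlap for 3 and 2 of the 7, against 12.1 and 18.2% of all genes. Tcrg-C4, Tcrg-C1, Trbc1 and Trbc2 averaged 120 to 269 CPM per kilobase over the 9 libraries, against 0.70 to 5.43 for the CD3 chains. Trac, Trdc, Tcrg-C2 and Tcrg-C3 averaged 0.021 to 10.2. Tcrg-C1, a constant gene of the gamma chain, had 100, 45.2 and 117 CPM in injured meninges, 234, 266 and 237 CPM in uninjured meninges, and 74.5, 79.1 and 40.2 CPM in lung. All 3 uninjured meninges libraries lay above every other library. It was the 1 constant gene called by edgeR, higher in uninjured meninges than in lung (log2 fold change 1.93 ± 0.36, adjusted p = 0.0185). The call was lost without uninjured meninges 2, lung 1 or lung 3, with values from 1.68 to 2.04. Against uninjured meninges the injured group was at -1.49 ± 0.35, with an adjusted p of 0.148 by edgeR and 0.0068 by DESeq2. Reads of the near-identical gamma constant copies Tcrg-C1, Tcrg-C2 and Tcrg-C3 are uncertain, as counting could split them.

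**Figure D5:**
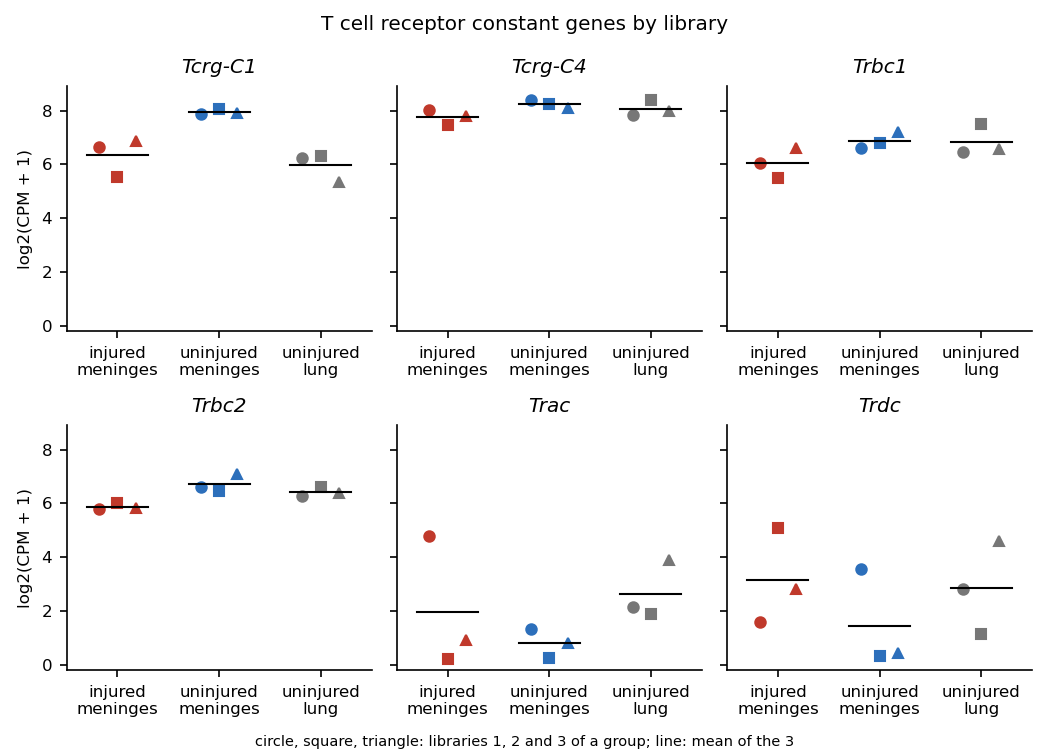
Level of 6 T cell receptor constant genes, as log2(CPM + 1) on the y axis, in injured meninges, uninjured meninges and lung on the x axis, with 1 point per library (circle, square and triangle for libraries 1, 2 and 3) and a line at the mean of the 3. Tcrg-C1 is at 234 to 266 CPM in uninjured meninges and under 120 CPM elsewhere, and Trac and Trdc are scattered in all groups.

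The beta constant genes Trbc1 and Trbc2 were also present in every library. Trbc1 had 65.3, 43.8 and 97.7 CPM in injured meninges, 96.2, 109 and 147 CPM in uninjured meninges, and 86.3, 182 and 93.3 CPM in lung. Trbc2 had 54.1, 62.9 and 55.2 CPM in injured meninges, 97.2, 86.6 and 137 CPM in uninjured meninges, and 75.5, 96.7 and 83.1 CPM in lung. The injured Trbc2 values lay below all uninjured meninges values, with a log2 fold change of -0.90 ± 0.31 (adjusted p = 0.435, edgeR), and those of Trbc1 overlapped. The 2 copies are near-identical and share reads. Tcrg-C4, another gamma constant gene, was at 177 to 258 CPM in injured meninges, 273 to 340 CPM in uninjured meninges and 228 to 335 CPM in lung.

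Trac and Trdc, the constant genes of the alpha and delta chains, were uneven over the libraries. Trac had 26.3, 0.16 and 0.88 CPM in injured meninges, 1.52, 0.19 and 0.74 CPM in uninjured meninges, and 3.38, 2.65 and 13.8 CPM in lung. Its uninjured meninges and lung libraries did not overlap, at -3.00 ± 1.66 (adjusted p = 0.746, edgeR), and in injured meninges a single library held most of it. Trdc had 1.97, 32.9 and 6.08 CPM in injured meninges, 10.8, 0.26 and 0.34 CPM in uninjured meninges, and 6.02, 1.18 and 23.5 CPM in lung. Tcrg-C2 had 4.0, 11.7 and 2.95 CPM in injured meninges, 11.5, 4.13 and 5.24 CPM in uninjured meninges, and 12.0, 0.96 and 31.7 CPM in lung, with all groups overlapping. Tcrg-C3 had at most 1 count in a library.

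Kinases, adaptors and other genes listed as downstream of the receptor were mostly abundant and even over the libraries. Of 26 listed, 25 had a count in every library and 25 averaged at least 10 CPM, and the median share of the highest library was 17.4%, beside 34.6% for the 9 genes. Their levels differed too, with a median of 102 CPM for the 26 and 5.98 CPM for the 9. Lcp2 (SLP-76), the adaptor that joins LAT to phospholipase C gamma, was at 442 to 571 CPM. By edgeR 0 of 25 tested were called in either comparison, where 0.192% of all genes were for injury and 0.635% for tissue. At an unadjusted p under 0.05 there were 3 for injury and 5 for tissue, where 8.94 and 7.98% of all genes passed. DESeq2 called 1 in each, where it called 1.81 and 2.96% of its genes. The groups did not overlap for 4 and 7 of the 25, against 12.1 and 18.2% of all genes. The median log2 fold change of the 25 was -0.18 for injury and 0.13 for tissue, beside -0.0047 and 0.0019 for all genes tested.

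Malt1, the paracaspase that links the receptor to NF-kappaB, had 137, 201 and 292 CPM in injured meninges, against 92.0, 117 and 98.0 CPM in uninjured meninges. The groups did not overlap, and the log2 fold change was 1.03 ± 0.29, with an adjusted p of 0.274 by edgeR and 0.0451 by DESeq2. Sh2d2a, an adaptor that binds Lck, was at 0.85 ± 0.27 for injury (adjusted p = 0.373). Plcg1, the phospholipase recruited by LAT, was at 1.03 ± 0.35 and Grap2 (Gads), which bridges LAT and SLP-76, at 1.17 ± 0.43 in meninges against lung (adjusted p = 0.319 and 0.385, edgeR).

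Negative regulators of the receptor had a median share of the highest library of 16.9%. None of the 17 tested of 18 listed was called by edgeR in either comparison, where 0.192 and 0.635% of all genes were. For injury and tissue 3 and 2 had an unadjusted p under 0.05, where 8.94 and 7.98% of all genes passed. DESeq2 called 0, where it called 1.81 and 2.96% of its genes. The groups did not overlap for 4 and 5 of the 17, against 12.1 and 18.2% of all genes. The median log2 fold change of the 17 was -0.14 for injury and 0.26 for tissue. Ubash3a, a phosphatase family member that dampens receptor signalling, was at 1.16 ± 0.47 in meninges against lung (adjusted p = 0.479), and Ubash3b, its relative, was at -0.66 ± 0.31 for injury (adjusted p = 0.550). For injury Sla was at -0.61 ± 0.26 and Ptpn22, in the other direction, at 0.56 ± 0.26 (adjusted p = 0.518 and 0.554, edgeR).

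Co-receptors and adhesion receptors of T cells were uneven over the libraries, with a median share of the highest library of 29.7% and 8 of 14 listed counted in every library. By edgeR 0 of 10 tested were called in either comparison, where 0.192 and 0.635% of all genes were. For injury and tissue 3 and 2 had an unadjusted p under 0.05, where 8.94 and 7.98% of all genes passed. DESeq2 called 0, where it called 1.81 and 2.96% of its genes. The groups did not overlap for 5 and 1 of the 10, against 12.1 and 18.2% of all genes. The median log2 fold change of the 10 was -0.93 for injury and -0.25 for tissue. Ly9, a receptor of the SLAM family, had 110, 103 and 86.8 CPM in injured meninges, against 54.9, 54.7 and 66.4 CPM in uninjured meninges, without overlap and at 0.77 ± 0.32 (adjusted p = 0.507, edgeR). Cd6, a receptor at the T cell contact, had 0.06, 0.08 and 0.06 CPM in injured meninges, against 5.22, 0.58 and 1.34 CPM in uninjured meninges. The groups did not overlap (log2 fold change -4.99 ± 2.07, adjusted p = 0.507, edgeR), but every injured Cd6 value lay below the level of 3 counts. Cd2, the receptor for CD48, had 0.72, 0.32 and 0 CPM in injured meninges, against 4.63, 1.68 and 8.60 CPM in uninjured meninges, at -3.81 ± 1.74 (adjusted p = 0.548). Icos, the costimulatory receptor that ILC2s carry, was abundant at 226 to 644 CPM.

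Markers of T cells were examined in the same libraries, because the sort excludes lineage-positive cells. All 12 listed had a count in at least 1 library, and 8 had one in every library. Their summed level was 187 to 254 CPM in injured meninges, 270 to 394 CPM in uninjured meninges and 214 to 331 CPM in lung, with injured and uninjured meninges not overlapping, and Trbc1, Trbc2 and Ubash3a made up most of it. Trat1, a receptor-associated adaptor, was at 0 in all injured libraries, and Cd40lg was at most 0.19 CPM. In injured meninges 2, where Cd3g was highest, Trac was at 0.16 CPM, Cd5 at 0.08, Cd6 at 0.08 and Cd28 at 2.62. Among other listed markers, Ubash3a was at its highest there, at 89.6 CPM, and Trbc1 and Themis at their lowest, at 43.8 and 4.06. Outside the list, Trdc and the summed variable and joining segments of the alpha chain were also highest there, at 32.9 and 25.5 CPM. In uninjured meninges 3, where Cd3d was highest, Trac was at 0.74 CPM, Cd5 at 5.71, Cd6 at 1.34 and Cd28 at 4.43. This library held 87.4% of the summed level of Cd5, and Trbc2 and Foxp3 were also highest there, at 137 and 8.33 CPM. Trac, Cd6 and Cd28 were highest in other libraries. In uninjured meninges 1, where Cd4 and Cd247 were highest, Trac was at 1.52 CPM, Cd5 at 0.05, Cd6 at 5.22 and Cd28 at 5.01. In lung 3, where Cd3e and Cd8a were highest, Trac was at 13.8 CPM, Cd5 at 0.19, Cd6 at 6.73 and Cd28 at 7.37. Cd6, Themis, Trat1 and Cd40lg were at their highest in lung 3, with Themis at 26.1 and Trat1 at 1.47 CPM. Ubash3a was at its lowest there, at 23.5 CPM, and Trac, Cd5 and Cd28 were highest in other libraries.

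Markers of other cells were summed as well. The 10 B cell markers summed to 33.1 to 137 CPM in injured meninges, 215 to 947 CPM in uninjured meninges and 245 to 339 CPM in lung. Ighm was the largest part of this sum in every library. For injury the log2 fold change was positive for 4 of the 10 markers and negative for 6. Cd79a and Ms4a1 were highest in injured meninges 2, at 29.7 and 17.4 CPM. Ighm, the heavy chain of IgM, had 47.1, 59.1 and 28.6 CPM in injured meninges, against 667, 184 and 886 CPM in uninjured meninges, and it fell (log2 fold change -3.69 ± 0.48, adjusted p = 0.00346, edgeR). The call was lost without injured meninges 1 or 2, at adjusted p of 0.0750 and 0.0919. The 7 lung epithelial markers summed to 10.5 to 27.7 CPM in injured meninges, 4.03 to 11.6 CPM in uninjured meninges and 684 to 2149 CPM in lung. The part of T cells or of these other cells in the values of the 9 genes was not tested.

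Genes whose level over the 9 libraries was most like that of a gene above 10 CPM were ranked among 8110 genes by the mean absolute difference of centred log2(CPM + 1). For Lat these were Ptpre at 0.17, Qars at 0.21 and Nup205 at 0.22. For Lck they were Slc25a11 at 0.19, Akr1c13 at 0.20 and Rab24 at 0.25, and for Zap70 Eif3b at 0.28, Rpl18 at 0.31 and Mllt1 at 0.33. For Cd3g the nearest were Shfm1 at 0.51, Gm1976 at 0.58 and Clpb at 0.60, all of them highest above 100 CPM in a library. Each value is a description over the same 9 libraries, with no test.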

How the data were processed

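The deposited table holds raw read counts per gene by Ensembl identifier, whole numbers without normalization, for the 9 libraries. Per the labels' protocols, the PicoPure kit gave the RNA, which the Ovation RNA-Seq System V2 then amplified. The submitters' processing notes name STAR, HTSeq, FastQC and mm9 without version or role. A symbol came from the table for 15969 genes and from a reference list matched on identifier for 7407, and 90 kept the identifier.

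Tests on counts used edgeR 4.0.16 (R 4.3.3). The filterByExpr function kept 15117 genes, TMM normalization scaled the libraries, and all 9 libraries entered 1 robust quasi-likelihood fit. Calls are at a Benjamini-Hochberg adjusted p under 0.05. SE is the absolute log2 fold change over the root of F. Exon lengths are from GENCODE M21, matched by identifier, and no coordinates of the files are given. The procedure was tested on simulated counts. Named genes were all 9 members, detected receptor constant genes, gate genes and, for each list, called genes or up to 3 with the smallest p, of which 1 gene is not reported here. Alternatives were DESeq2 1.42.0, other size factors, no filter, the 6 compared libraries, the replicate block, no mitochondrial genes, and each library left out. The members and lists were chosen with earlier results of these data known. Every pair of libraries differed by more than sampling noise.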

Additional observations from a re-analysis of the deposited data

How the results depend on the processing

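Over 15 alternatives per comparison the 8 tested genes gave 239 values, of which 1 was called (Cd3d for tissue by DESeq2) and 15 changed sign. The count of called members was 0 under every other alternative in both comparisons. For injury, 29 genes were called in all, against 252 by DESeq2, 78 without the filter, 12 with the 6 compared libraries alone and 18 to 27 with 1 library left out (18 without injured meninges 2, 19 without uninjured meninges 2). For tissue, 96 were called, against 419 by DESeq2, 193 without the filter, 226 with the 6 compared libraries alone and 51 to 196 with 1 left out (51 without lung 3, 53 without uninjured meninges 2, 196 without injured meninges 2). DESeq2 called 1 member for tissue. The cause was not tested.

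With 1 library left out, the log2 fold changes that crossed 0 for injury ranged from -2.93 to 0.60 for Cd3e, -1.20 to 2.68 for Cd3g, -1.35 to 0.33 for Cd247, -5.27 to 2.91 for Cd4, -0.69 to 0.52 for Lat, -1.76 to 0.17 for Zap70 and -0.65 to 4.27 for Trac. For tissue they ranged from -0.23 to 1.51 for Cd3g, -4.92 to 1.66 for Cd4, -0.36 to 0.28 for Lck and -0.23 to 0.36 for Trbc1. The filter dropped Cd4 from the injury fit of 6 libraries.

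No pairing of the libraries by replicate number was visible. Same-numbered deviations correlated at 0.063, -0.018 and 0.019 for injury and 0.034, 0.096 and 0.0064 for tissue. Of 18 library and group pairs, 7 fitted best with their own number. The labels do not say whether equal numbers shared animals or handling, and these values cannot decide it. With the replicate block, 43 and 136 genes were called for injury and tissue, 0 members in each, and Cd4 for tissue was at -1.42. At 0.163 to 0.239 CPM for 3 counts, the values of Cd4, Cd8a, Cd3d and Cd6 near or below that limit rest on few reads. The Ighm call was lost without the filter and with the replicate block, at adjusted p of 0.0772 and 0.0716. The Thy1 call was lost in the 6-library fit and without uninjured meninges 1, uninjured meninges 3, injured meninges 2 or injured meninges 3.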

Other observations

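Variable and joining segments of the receptor genes gave summed levels by chain, for which no test was made. The 10 gamma segments in the table summed to 71.6, 49.5 and 72.6 CPM in injured meninges, 50.4, 56.9 and 84.8 CPM in uninjured meninges, and 31.9, 24.7 and 16.4 CPM in lung, so the lung libraries lay below all meningeal libraries. The 24 alpha segments summed to 8.0, 25.5 and 8.52 CPM in injured meninges, 0.60, 2.32 and 6.05 CPM in uninjured meninges, and 1.66, 2.28 and 3.39 CPM in lung. The injured libraries lay above the rest for the alpha segments, while Trac itself was above 1 CPM in 1 injured library. The 24 beta segments summed to at most 31.2 CPM in injured meninges, 34.3 to 48.1 CPM in uninjured meninges, and 17.6 to 27.1 CPM in lung, so the uninjured meninges libraries lay above the rest. The 5 delta segments ranged from 6.37 to 29.8 CPM with no order between the groups. A further list held 6 signalling genes of other receptors: the chains Fcer1g, Tyrobp, Hcst, Cd79a and Cd79b and the kinase Syk. Of the 6, 0 were called by edgeR or DESeq2 in either comparison. Of all genes edgeR called 0.192 and 0.635% for injury and tissue, and DESeq2 1.81 and 2.96% of its genes. At an unadjusted p under 0.05 there were 0 and 1 of the 6, the 1 being Syk, where 8.94 and 7.98% of all genes passed. Among the 6, Fcer1g, the gamma chain of Fc receptors, had 4.72, 0 and 2.26 CPM in injured meninges, 12.5, 4.26 and 1.61 CPM in uninjured meninges, and 7.62, 3.68 and 6.09 CPM in lung.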
